A study of Mus musculus with 6 samples.

Results

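Skeletal muscle messenger RNA was present at low level in mouse BMSCs, the mesenchymal stem cells of bone marrow, and it differed among the 3 libraries of the same wild type genotype as well as between genotypes. The 10 genes described here, of 22984 in the table, are Myod1, Myog, Actc1, Acta1, Mylpf, Tnnt3, Tnni2, Tnnc2, Des and Ckm. They were chosen by their measured values in these same libraries, because their levels varied among libraries, so their levels are given as a description and no test is made on them. The series compared 3 libraries of Grx2+/+ BMSCs with 3 of Grx2-/- BMSCs, which lack a working copy of Glrx2, the gene of the mitochondrial thiol-disulfide oxidoreductase glutaredoxin 2. BMSCs are grown as adherent stromal cells, and the design text writes them as O-BMSCs without expanding the prefix. The labels give no treatment, time in culture, age or sex, and do not say whether a replicate is an animal or a culture dish, so a p-value here reflects the spread among 6 libraries and nothing wider, and that spread may be technical. Glrx2 itself stood at 3.57, 3.74 and 3.54 FPKM in Grx2+/+ replicates 1 to 3, and at 0.00461, 0 and 0 FPKM in Grx2-/- replicates 1 to 3, as the genotype labels have it.

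Skeletal muscle forms when precursor cells switch on the basic helix-loop-helix factors MyoD (Myod1) and myogenin (Myog). These factors pair with E proteins, bind E-box motifs and turn on the genes of the sarcomere, the contractile unit in which myosin pulls on thin filaments of actin and the troponin complex gates that pull by binding calcium. Developing and regenerating muscle first makes embryonic forms, among them cardiac actin (Actc1) and embryonic myosin (Myh3), and later replaces them with adult forms such as skeletal actin (Acta1). Marrow stromal cells are known for forming bone, fat and cartilage rather than skeletal muscle, and alpha smooth muscle actin and other smooth muscle genes are well known in their cultures.

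FPKM, fragments per kilobase of gene at a common depth, is scaled for depth and gene length, so levels can be set side by side between genes. Whole reads worked back from the FPKM values put the depth at 40797879 to 41794919 reads per library. Grx2+/+ replicate 2 and Grx2-/- replicate 1 stood apart from their own groups: chi-square per gene against sampling noise was 15.3 and 8.74 for Grx2+/+ replicate 2 against replicates 1 and 3, and 3.72 between replicates 1 and 3. In Grx2-/-, it was 21.5 and 11.7 for replicate 1 against replicates 2 and 3, and 4.14 between those. For that reason the 10 genes are given by library, and their group ratios and differences with and without Grx2+/+ replicate 2. A summed level in bulk RNA cannot tell fewer cells of a type from less RNA per cell. Markers of the labelled cell type were present, with 9 mesenchymal stromal markers summing to 283 to 292 FPKM in Grx2+/+ and 722 to 811 FPKM in Grx2-/-. The 9 did not move together: 4 rose in Grx2-/- (limma), Thy1 and Ly6a among them, and 4 fell, with Lepr at 3.42 to 4.48 FPKM in Grx2+/+ and 0.0296 to 0.0382 FPKM in Grx2-/-. Lepr reached the mean of 1 FPKM needed for that test through Grx2+/+ alone, which fixed its direction. Macrophage markers were also present, 9 of them summing to 1512 to 1627 FPKM in Grx2+/+ and 2450 to 3340 FPKM in Grx2-/-.

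Summed over the 10 genes, the level was 8.35 FPKM in Grx2+/+ replicate 1, 85.5 FPKM in replicate 2 and 30.4 FPKM in replicate 3, against 3.98, 6.46 and 6.42 FPKM in Grx2-/- replicates 1 to 3. In reads, the 10 genes together took 429, 4658 and 1691 reads in the Grx2+/+ libraries and 218, 330 and 343 reads in the Grx2-/- libraries. That is 0.0113% of all reads in Grx2+/+ replicate 2, the highest of the 6 libraries, and 0.000522% in Grx2-/- replicate 1, the lowest. Most of the 10 genes repeated 1 order in wild type cells, with replicate 2 highest, replicate 3 between and replicate 1 lowest, and all but Acta1 and Tnni2 stayed under 1 FPKM in every knockout library. For Acta1, Tnnt3, Tnni2 and Ckm the knockout levels overlapped those of the wild type libraries.

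**Figure D1:**
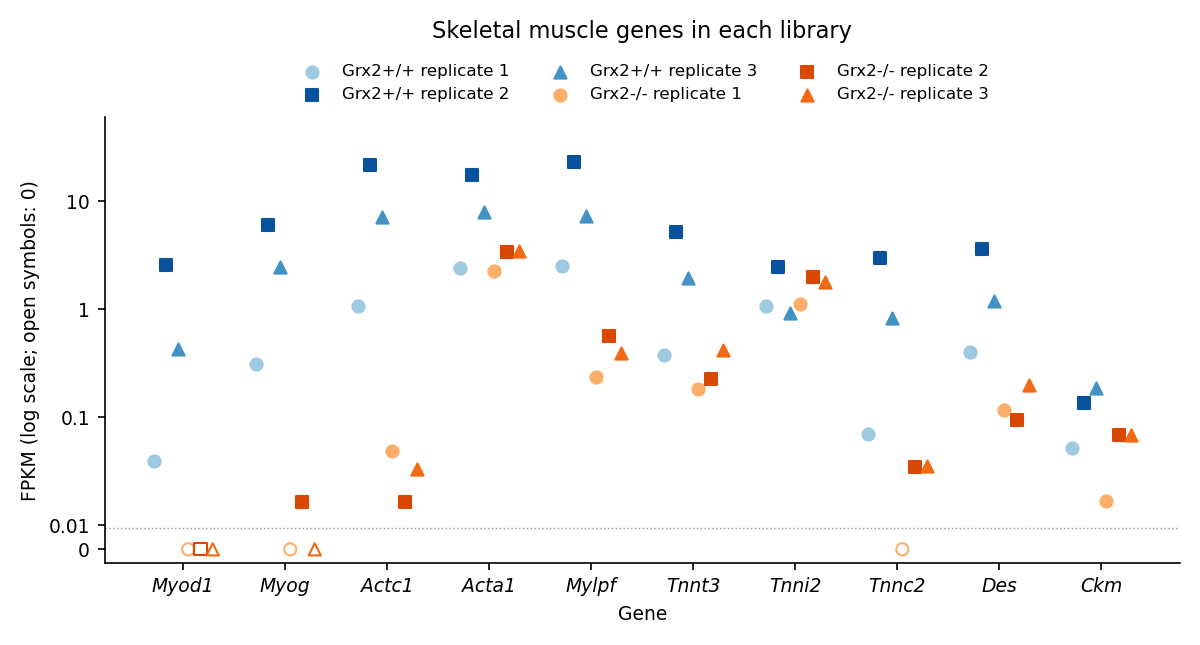
FPKM (log axis, with 0 drawn on a shelf below the dotted line) of each of the 10 genes in each of the 6 libraries, 1 symbol per library, blue for Grx2+/+ and orange for Grx2-/-. Grx2+/+ replicate 2 is the highest library for 9 genes, and Myod1 has no read in any Grx2-/- library.

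Myogenin, the factor that commits myoblasts to terminal differentiation, gave the clearest presence and absence. Myog stood at 0.315, 6.10 and 2.49 FPKM in Grx2+/+ replicates 1, 2 and 3, from 19, 372 and 153 reads. In Grx2-/- it had 0, 1 and 0 reads, a level of 0, 0.0164 and 0 FPKM. Every wild type library was above every knockout library, and even the lowest wild type library had 19 times as many reads as the single read found in knockout cells. The ratio of summed reads, 544 in Grx2+/+ to 1 in Grx2-/-, has an exact 95% interval of 97.6 to 21618, which covers counting error only and not the spread between libraries. Without Grx2+/+ replicate 2 it was 172 reads to 1. Among the wild type libraries, replicate 2 was 19.4-fold above replicate 1 (exact 95% interval 12.2 to 32.6, counting error only).

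MyoD, the factor that can start the muscle programme in other cell types, was lower than myogenin in every wild type library. Myod1 stood at 0.0397, 2.57 and 0.430 FPKM in Grx2+/+ replicates 1, 2 and 3, from 3, 196 and 33 reads. No Grx2-/- library had a Myod1 read. A floor of 3 reads over the Grx2-/- group was used, about the one-sided 95% upper limit for a count of 0. Against it, the level was at least 77.7-fold higher in Grx2+/+, and at least 18.1-fold higher with Grx2+/+ replicate 2 left out. Both bounds cover counting error only. Replicate 1 had 3 reads, as many as the floor, but in 1 library rather than over the 3 Grx2-/- libraries. Of the 10 genes Myod1 rested most on 1 library: replicate 2 was 64.7-fold above replicate 1 (exact 95% interval 21.8 to 316, counting error only).

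The 250 bases before the annotated start of Myog are shown because myogenic factors act through E-boxes near such starts. The sequence is from RefSeq's table for GRCm38.p6, chr1:134289754-134290003, plus strand, 5′ to 3′, and capitals mark E-boxes, here any match to CANNTG. The submitters' notes name GRCm39, so these coordinates are of another build than the reads.
Myog: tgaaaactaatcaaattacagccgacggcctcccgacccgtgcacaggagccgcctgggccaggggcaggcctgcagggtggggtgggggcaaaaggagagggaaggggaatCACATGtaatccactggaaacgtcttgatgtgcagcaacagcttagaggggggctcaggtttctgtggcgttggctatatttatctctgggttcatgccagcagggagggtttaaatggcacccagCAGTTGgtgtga
It holds 2 E-boxes, at 138 to 133 and at 12 to 7 bases before the start, and neither has the CAGCTG form.

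Actc1 encodes the alpha actin of heart, which skeletal muscle makes while it develops or regenerates. Its level was 1.07, 21.5 and 7.22 FPKM in Grx2+/+ replicates 1, 2 and 3, and 0.0491, 0.0166 and 0.0334 FPKM in Grx2-/- replicates 1 to 3. These values come from 64, 1297 and 437 reads in wild type and 3, 1 and 2 reads in knockout. The groups did not overlap: the mean was 9.95 ± 10.5 FPKM in Grx2+/+ and 0.0330 ± 0.0163 FPKM in Grx2-/- (SD, n = 3 each), with a wild type SD as large as its mean. The ratio of means was 301, and it was 125 without Grx2+/+ replicate 2 and 32.5 with Grx2+/+ replicate 1 alone. So the size of the ratio depended on the library, and its direction was the same with each of them.

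Acta1 encodes the alpha actin of adult skeletal muscle, and here the knockout cells kept a level. Acta1 stood at 2.42, 17.6 and 7.93 FPKM in Grx2+/+ replicates 1, 2 and 3, and at 2.25, 3.42 and 3.49 FPKM in Grx2-/- replicates 1 to 3. The groups overlapped, because Grx2+/+ replicate 1 lay below Grx2-/- replicates 2 and 3. The mean was 9.33 ± 7.71 FPKM in Grx2+/+ and 3.05 ± 0.694 FPKM in Grx2-/- (SD, n = 3 each). The ratio of means, 3.05, became 1.69 without Grx2+/+ replicate 2 and 0.792 with Grx2+/+ replicate 1 alone. Acta1 and Actc1 thus parted in the knockout libraries: in Grx2-/- replicate 2, Acta1 had 221 reads and Actc1 had 1.

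These actins are close relatives, so reads could in part be shared between them. Over coding sequences of 1134 bases each, Acta1 and Actc1 are 86.2% identical, with a longest identical run of 29 bases, in the GENCODE transcripts of GRCm38. Acta1 is 85.4% identical to Acta2, the smooth muscle alpha actin, which stood at 1628, 1481 and 1566 FPKM in Grx2+/+ and at 458, 756 and 676 FPKM in Grx2-/- replicates 1 to 3. Acta2 was named after its values were seen. Its order among the wild type libraries, lowest in replicate 2, was the opposite of that of Acta1. Within Grx2-/-, both genes were lowest in replicate 1. Sharing of reads was not tested. How reads that fit several genes were counted is not given in the sources used here.

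The promoters of both actins are shown because each holds a CArG box, the site of serum response factor, which controls actin genes in all muscle types. Both lie on the minus strand in RefSeq's GRCm38.p6 table, Acta1 at chr8:123894776-123895025 and Actc1 at chr2:114052876-114053125. They are written 5′ to 3′ along the gene, with CArG boxes and E-boxes in capitals.
Acta1: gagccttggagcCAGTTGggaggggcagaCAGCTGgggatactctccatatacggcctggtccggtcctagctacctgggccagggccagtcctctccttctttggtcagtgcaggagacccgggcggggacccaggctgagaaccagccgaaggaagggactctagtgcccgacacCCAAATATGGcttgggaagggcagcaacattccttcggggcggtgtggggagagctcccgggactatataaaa
Actc1: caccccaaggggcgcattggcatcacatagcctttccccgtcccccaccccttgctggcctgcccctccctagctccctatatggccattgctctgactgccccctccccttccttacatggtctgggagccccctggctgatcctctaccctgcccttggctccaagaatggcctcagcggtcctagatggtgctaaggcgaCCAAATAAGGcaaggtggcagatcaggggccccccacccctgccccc
In Acta1 the CArG box lies 73 to 64 bases before the start, with 2 E-boxes farther away, at 238 to 233 and 221 to 216 bases. Actc1 has its CArG box at 47 to 38 bases and no E-box in these 250 bases.

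Mylpf encodes the regulatory light chain of fast skeletal myosin. It had the highest single value of the 10 genes, at 2.52, 23.2 and 7.26 FPKM in Grx2+/+ replicates 1, 2 and 3. In Grx2-/- it stood at 0.237, 0.571 and 0.392 FPKM, from 8, 19 and 13 reads, so it was low but not at 0. The groups did not overlap, with means of 11.0 ± 10.8 FPKM and 0.400 ± 0.167 FPKM (SD, n = 3 each). The ratio of means was 27.5, and it was 12.2 without Grx2+/+ replicate 2 and 6.29 with Grx2+/+ replicate 1 alone.

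Its promoter, at chr7:127211358-127211607 on the plus strand of GRCm38.p6, is shown for its E-box of the CAGCTG form, which lies 51 to 46 bases before the start.
Mylpf: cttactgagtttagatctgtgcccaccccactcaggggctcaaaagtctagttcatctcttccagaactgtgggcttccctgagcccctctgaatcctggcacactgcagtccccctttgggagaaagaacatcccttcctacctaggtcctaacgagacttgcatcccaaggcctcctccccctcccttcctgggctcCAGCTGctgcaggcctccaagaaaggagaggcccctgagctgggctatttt
No other E-box and no CArG box was found in these 250 bases.

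The troponin complex of fast muscle has 3 subunits, and its genes did not share 1 pattern. Tnnc2, the calcium-binding subunit, stood at 0.0707, 2.98 and 0.836 FPKM in Grx2+/+ replicates 1, 2 and 3, and at 0, 0.0351 and 0.0352 FPKM in Grx2-/-. Its wild type libraries had 2, 85 and 24 reads and its knockout libraries 0, 1 and 1, so the groups were kept apart by 2 reads against 1. Tnnt3, the subunit that ties the complex to tropomyosin, stood at 0.377, 5.21 and 1.94 FPKM in Grx2+/+ and at 0.184, 0.229 and 0.417 FPKM in Grx2-/-. Grx2-/- replicate 3, with 20 reads, lay above Grx2+/+ replicate 1, with 18, and so the groups overlapped. The ratio of Tnnt3 means was 9.07, and it became 4.19 without Grx2+/+ replicate 2 and 1.36 with Grx2+/+ replicate 1 alone.

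Tnni2, the inhibitory subunit of the same complex, had overlapping levels in the genotypes. It stood at 1.08, 2.45 and 0.933 FPKM in Grx2+/+ replicates 1, 2 and 3, and at 1.12, 2.01 and 1.79 FPKM in Grx2-/- replicates 1 to 3. The groups overlapped, and replicate 3 was the lowest wild type library, out of the order seen in the other troponins. Replicate 2 was 2.26-fold above replicate 1 (exact 95% interval 1.47 to 3.54, counting error only). Over the groups, 133 reads in Grx2+/+ and 147 in Grx2-/- gave a ratio of 0.909 with an exact 95% interval of 0.713 to 1.16, and the ratio of mean FPKM was 0.907, or 0.615 without Grx2+/+ replicate 2. In RefSeq's GRCm38.p6 table Tnni2 and Tnnt3 lie on 1 chromosome with 1 protein-coding gene, Lsp1, between them, and in Grx2-/- replicate 1 the Tnni2 level was 1.12 FPKM beside 0.184 FPKM for Tnnt3.

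Desmin, an intermediate filament protein of all muscle types that ties sarcomeres together in striated muscle, followed the wild type order. Des stood at 0.400, 3.66 and 1.20 FPKM in Grx2+/+ replicates 1, 2 and 3, from 50, 462 and 152 reads. In Grx2-/- it stood at 0.117, 0.0951 and 0.199 FPKM, from 15, 12 and 25 reads. All wild type libraries were above all knockout libraries, with a ratio of means of 12.8 that became 5.83 without Grx2+/+ replicate 2. Ckm, muscle creatine kinase, an abundant enzyme of mature fibres that buffers ATP, was close to the limit of detection. Its 3, 8 and 11 reads in Grx2+/+ and 1, 4 and 4 reads in Grx2-/- gave overlapping groups, and it was the 1 gene of the 10 that was highest in Grx2+/+ replicate 3. The difference between Grx2+/+ replicates 2 and 1 was not detectable for Ckm at this depth, since the exact 95% interval of that ratio, 2.64, runs from 0.634 to 15.5.

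Some overlaps of annotated genes bear on these values, since the strand setting of the counting is not given in the sources used here. In RefSeq's GRCm38.p6 table Mylpf overlaps Septin1, at 0.207 to 0.315 FPKM in Grx2+/+, and Tnnt3 overlaps Prr33, with no value above 0.0216 FPKM in any library. Ckm overlaps A930016O22Rik, which was at 0 in every Grx2+/+ library and at most 0.00949 FPKM in Grx2-/-. Des overlaps Gm15179, not analysed here.

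The spread among the wild type libraries was large against that of other genes. Of the 10 genes, 6 had a mean of at least 1 FPKM over the 6 libraries, the minimum for the tests below, and the other 4 (Myod1, Tnnc2, Des and Ckm) did not. Ranked by the SD of log2(FPKM + 1) over the 3 Grx2+/+ libraries among 11083 genes past that minimum, Actc1 came 1st with 1.73, Mylpf 2nd with 1.39, Acta1 4th with 1.23, Myog 5th with 1.22 and Tnnt3 7th with 1.09, while Tnni2 came 68th with 0.45. In the Grx2-/- libraries the SDs of Actc1 and Myog were 0.02 and 0.01, at levels near 0, and those of Tnni2 and Acta1 were 0.27 and 0.26, ranks 220 and 230. The rule that chose the genes used this spread, so the ranks describe it and test nothing.

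The order of the wild type libraries was counted with replicate 2 above replicate 3, replicate 3 above replicate 1, and replicate 2 at least 2-fold above replicate 1. It held for 8 of the 10 genes, all but Tnni2 and Ckm, and for 5.29% of the 17330 genes with at least 10 reads over the 6 libraries; the choice of the genes used these values. For these 8 genes the ratio of replicate 2 to replicate 1 ran from 7.30 for Acta1 to 64.7 for Myod1, with a median of 16.6. Replicate 3 lay nearer to replicate 1 than to replicate 2 in all 8. Its distance above replicate 1, as a share of the distance from replicate 1 to replicate 2 in FPKM, was 36.2% for Acta1, 22.9% for Mylpf, 37.7% for Myog, 32.3% for Tnnt3, 26.3% for Tnnc2, 30.0% for Actc1 and 24.5% for Des. Myod1 had the lowest share, 15.4%, and the median of the 8 was 28.2%.

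**Figure D2:**
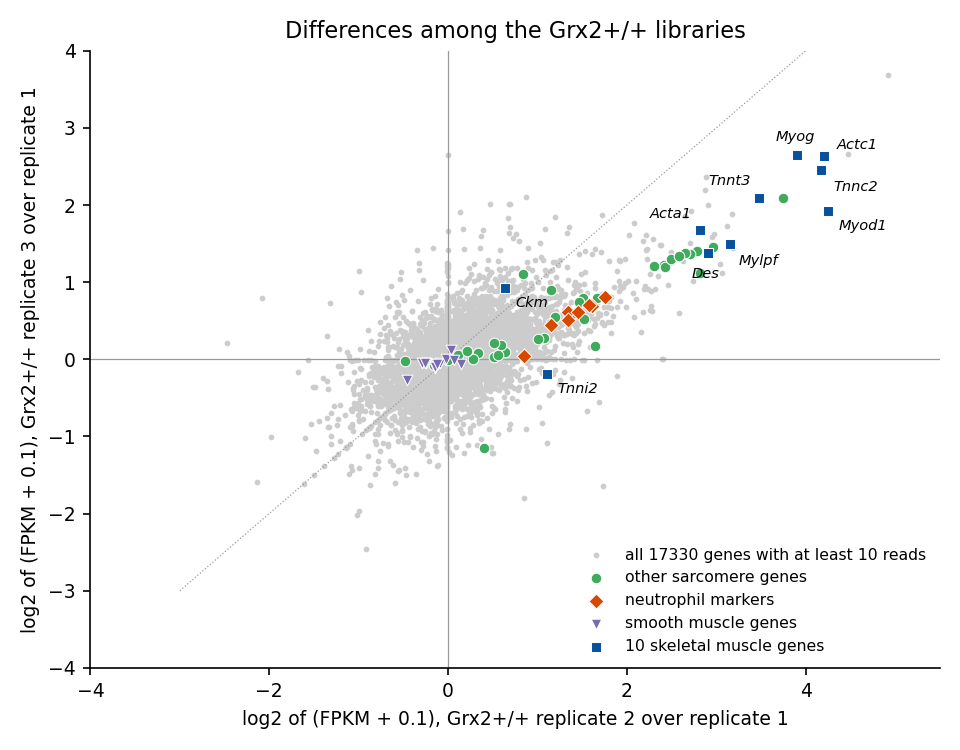
Differences among the 3 Grx2+/+ libraries for 17330 genes with at least 10 reads: the x axis is log2 of (FPKM + 0.1) in replicate 2 over replicate 1, the y axis the same for replicate 3 over replicate 1, and the dotted line marks equal values. The 8 genes from Acta1 (7.30-fold in FPKM) to Myod1 (64.7-fold) lie far to the right and below the dotted line. Most other sarcomere genes (28 of 37) and neutrophil markers (7 of 8) have the same order, and smooth muscle genes lie near 0.

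Between the genotypes, all 3 Grx2+/+ libraries lay above all 3 Grx2-/- libraries for 6 of the 10 genes (Mylpf, Myog, Myod1, Tnnc2, Actc1 and Des), which is also so for 26.5% of the 17330 genes with at least 10 reads. The other 4, Acta1, Tnnt3, Tnni2 and Ckm, overlapped. In a limma fit of log2(FPKM + 1) over the 11083 genes past the minimum level, 67.4% passed an adjusted p under 0.05, 42.7% as higher in Grx2-/- and 24.6% as lower. That split moved with scaling: 4737 genes were higher and 2728 lower on the values as deposited, 3786 and 3575 after median-of-ratios scaling, and 3413 and 3945 after quantile normalization. The 6 genes of the set past the minimum level were part of this fit. Their calls are not given, since their measured values in these libraries chose them. The differences of genotype means, Grx2-/- minus Grx2+/+ on the log2(FPKM + 1) scale, were -2.82 for Actc1, -2.67 for Mylpf, -1.67 for Myog, -1.20 for Tnnt3, -1.05 for Acta1 and 0.12 for Tnni2, a scale that understates the change of low genes. Without Grx2+/+ replicate 2 they were -1.999 for Actc1, -1.95 for Mylpf, -1.09 for Myog, -0.66 for Tnnt3, -0.46 for Acta1 and 0.38 for Tnni2, so those of Myog, Tnnt3, Acta1 and Tnni2 moved by more than 1.5 times. Tnni2 took the opposite sign, -0.04, without Grx2+/+ replicate 3.

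Skeletal muscle genes outside the 10 were looked up on 5 lists made by role, with 113 genes in the table. The lists were written with earlier results of these data known. Of these, 98 had at least 10 reads over the 6 libraries. The wild type order held for 52 of the 98 (53.1%, against 5.29% of all genes), and in 55 (56.1%, against 26.5%) all Grx2+/+ libraries were above all Grx2-/- libraries. These shares were not matched for level, and counting error alone can give a 2-fold difference in genes with few reads. Sgca, for one, is among the 52 with 0, 9 and 9 reads in Grx2+/+ replicates 1, 2 and 3. Where the order held and replicate 1 gave a ratio (48 genes), replicate 2 was a median 8.79-fold above replicate 1, and replicate 3 lay a median 29.4% of the way up. Only 29 of the 113 reached a mean of 1 FPKM. Of those 29, 14 fell in Grx2-/- (48.3%, against 24.6% of all genes), 8 rose (27.6%, against 42.7%) and 7 did not pass, with a median log2 difference of -0.12 beside 0.09 over all genes tested. Some reached that mean through 1 genotype alone, which fixed their direction. Myom1, Ldb3, Myh3, Six4, Itga7, Jph1 and Pgam2, which fell, had Grx2-/- means under 1 FPKM. Cav3 and Synm, which rose, had Grx2+/+ means under 1 FPKM.

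Of the 5 lists, the other sarcomere genes had the order most often. It held for 28 of the 37 with at least 10 reads, beside 5.29% of all genes. In 23 of the 37, beside 26.5% of all genes, all wild type libraries were above all knockout libraries. Embryonic myosin heavy chain, Myh3, stood at 0.247, 4.54 and 1.38 FPKM in Grx2+/+ replicates 1, 2 and 3 and had 0, 1 and 0 reads in Grx2-/-. The essential light chain Myl1 stood at 0.327, 2.83 and 1.03 FPKM in Grx2+/+ and at no more than 0.0308 FPKM in Grx2-/-. Some slow and cardiac troponins had the same order. Tnnt2, cardiac troponin T, had 26, 167 and 68 reads in Grx2+/+ and 1, 0 and 0 in Grx2-/-, and Tnni1, slow troponin I, had 40, 279 and 116 reads against 3, 9 and 4. Tnni3, cardiac troponin I, did not have it, with 6, 5 and 5 reads against 10, 17 and 5. Perinatal myosin, Myh8, had 15, 193 and 70 reads against 1, 0 and 2. The adult fast myosins were far lower: Myh1 had 10, 25 and 11 reads in Grx2+/+ and 3, 7 and 6 in Grx2-/-. Myh2 had no wild type read and 4, 6 and 6 knockout reads, and Myh4 had 1, 3 and 2 reads in Grx2+/+ and 0, 6 and 6 in Grx2-/-.

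All 4 of the 39 sarcomere genes that could be tested fell in Grx2-/- (limma, adjusted over 11083 genes), beside 24.6% of all genes tested. For Myh3, Myom1 and Ldb3 the minimum level fixed that direction. Their Grx2-/- means were 0.00134, 0.485 and 0.413 FPKM, so only a higher Grx2+/+ level let them be tested. The 4 genes were of 2 kinds. Myom1, which encodes the M-band protein myomesin, was even among the wild type libraries at 4.89, 4.37 and 4.66 FPKM and fell to 0.386, 0.559 and 0.510 FPKM, a log2 difference of -1.93 ± 0.07 (SE, adjusted p = 1.68e-07). Ldb3, a Z-disc protein, was likewise even and fell by 1.42 ± 0.08 (SE, adjusted p = 1.62e-06). Tnnc1, the slow and cardiac troponin C, had the wild type order, at 2.01, 10.3 and 4.79 FPKM against 0.929, 1.75 and 0.879 FPKM, and fell by 1.44 ± 0.42 (SE, adjusted p = 0.016). Myh3 fell by 1.34 ± 0.45 (SE, adjusted p = 0.0283). The calls of Tnnc1 and Myh3 did not hold in every setting: without Grx2-/- replicate 3 their adjusted p was 0.0545 and 0.0699 (over settings, 0.00109 to 0.066 and 0.00168 to 0.0974). Myh3 also lost its call without Grx2-/- replicate 1 (0.0578) or replicate 2 (0.0591), and dropped below the minimum level without Grx2+/+ replicate 2 or 3.

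Among the regulators, 2 of the 10 with at least 10 reads had the wild type order, beside 5.29% of all genes. All wild type libraries were above all knockout libraries in 8 of the 10, beside 26.5% of all genes. Pax7, the marker of muscle satellite cells, had 1 read in all 6 libraries together, Myf6 had 2, too few to show any order, and Myf5 was not found in the table. Six4, a homeobox factor that acts early in muscle and other tissues, was even among wild type libraries and fell in Grx2-/-. It stood at 2.10 ± 0.0394 FPKM in Grx2+/+ and 0.958 ± 0.0350 FPKM in Grx2-/- (SD, n = 3 each; limma adjusted p = 1.52e-05). That Grx2-/- mean was under 1 FPKM, so the minimum level fixed the direction. In all, 5 of 16 could be tested: 3 fell, Six4 and Mef2d among them, Eya1 rose, and so did Mef2a, which lost its call after median-of-ratios scaling (adjusted p = 0.0552, over a range of 0.000172 to 0.126 across settings) and was named after its values were seen. Smyd1, a muscle methyltransferase, and Rbm24, a muscle splicing factor, had the wild type order, with 9, 128 and 42 reads and with 10, 51 and 19 reads, and no more than 3 reads in any Grx2-/- library.

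Fusion of myoblasts needs myomaker (Mymk) and myomixer (Mymx). Mymk had 7, 113 and 43 reads in Grx2+/+ replicates 1, 2 and 3 and 1, 0 and 0 in Grx2-/-, and Mymx had 1, 21 and 4 reads and none. Both followed the order of Myog. Genes of the muscle membrane and its repair did not: of 9 tested on this list, 5 rose (Synm, Myof, Flnc, Cav3 and Cryab), 2 fell (Dysf and Itga7) and 2 did not pass. Dysf, dysferlin, fell by 1.01 ± 0.05 on the log2 scale (SE, limma adjusted p = 7.09e-07) and Synm, a desmin-binding filament protein, rose by 1.22 ± 0.06 (SE, limma adjusted p = 7.94e-07). Cav3, the caveolin of muscle, combined both patterns and was named after its values were seen. It stood at 0.191, 1.01 and 0.605 FPKM in Grx2+/+, in the order of Myog, and higher, at 2.56, 3.93 and 3.65 FPKM, in Grx2-/- (log2 difference 1.47 ± 0.19, SE, limma adjusted p = 0.000252). The minimum level fixed the direction of Synm and Cav3, with Grx2+/+ means of 0.335 and 0.601 FPKM. For Itga7, with a Grx2-/- mean of 0.466 FPKM, it did so too. Over all genes tested, 42.7% rose and 24.6% fell.

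The calcium and synapse list repeated the wild type order in 14 of 23 genes with at least 10 reads, beside 5.29% of all genes. The acetylcholine receptor subunit of fetal muscle, Chrng, had 1, 31 and 16 reads in Grx2+/+ replicates 1, 2 and 3 and none in Grx2-/-. Chrna1, the alpha subunit, had 35, 282 and 122 reads against 3, 3 and 1. Casq2, a calcium store protein, had 6, 141 and 35 reads against 2, 1 and 0. Of 3 tested genes on this list, Jph1 and Tmem38a, both of the calcium store membrane, fell, and Jph2 did not pass. In the energy list the order held for 2 of 12, beside the same 5.29%. Mb, myoglobin, had 10, 86 and 18 reads in Grx2+/+ and 0, 1 and 0 in Grx2-/-. Pgam2, the muscle form of phosphoglycerate mutase, was even in wild type at 13.2, 12.9 and 13.5 FPKM and fell to 0.845, 0.751 and 0.673 FPKM, by 3.02 ± 0.06 on the log2 scale (SE, limma adjusted p = 9.36e-09). Eno3 and Phka1 fell with it, Ckb rose, and 4 of the 8 tested did not pass. Jph1 and Pgam2 had Grx2-/- means of 0.311 and 0.756 FPKM, so the minimum level fixed their direction.

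A lower level in Grx2-/- and a spread among wild type libraries did not always go together. Of the 14 genes on the 5 lists that fell, 12 did not have the wild type order, and their ratio of replicate 2 to replicate 1 was 0.894 to 1.34. Of the 22 genes called in either direction, the 3 with the order were Tnnc1, Myh3 and Cav3. Calls cover only the 29 genes past the minimum level. Over all 98 genes with at least 10 reads, 52 had the order. Of those 52, 33 also had all Grx2+/+ libraries above all Grx2-/- libraries, and 19 did not.

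**Figure D3:**
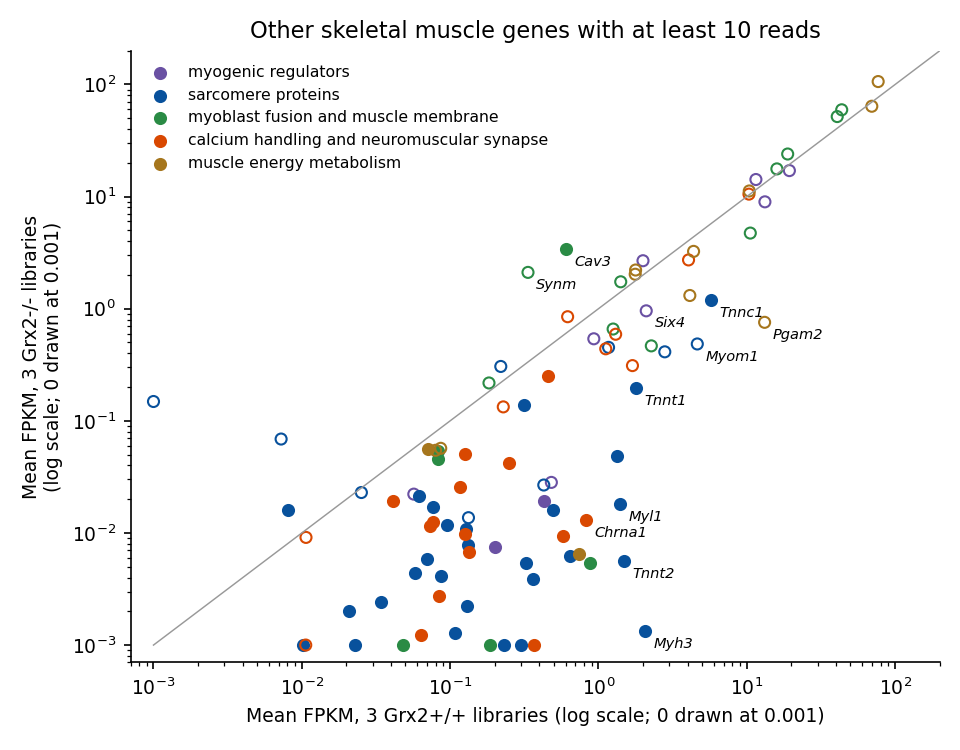
Mean FPKM of each of 98 skeletal muscle genes outside the set of 10 in Grx2+/+ (x axis) and Grx2-/- (y axis), n = 3 libraries each, both on log axes with 0 drawn at 0.001, coloured by list; filled symbols have the order replicate 2, 3, 1 in Grx2+/+ and open symbols do not. The line marks equal means; most filled symbols lie below it at a wild type mean under 3 FPKM, and the filled symbols of Cav3 and Myh4 lie above it.

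The genes with the pattern most like that of the 10 were sought by the Pearson correlation of log2(FPKM + 1), taken as deviations from the genotype mean over 6 libraries, with the mean deviation of the 6 members past the minimum level. That mean deviation was -1.17, 1.17 and 0 in Grx2+/+ replicates 1, 2 and 3 and between -0.14 and 0.08 in Grx2-/-, so the correlation rests mainly on 3 libraries. It was computed for 61 genes with a range of at least 1 on this scale within a genotype, 54 of them in Grx2+/+. The 12 highest were S100a9 (r = 0.998), Pglyrp1 (0.997), Chil3 (0.995), Prtn3 (0.995), Ltf (0.994), Hmga2 (0.994), Stfa2l1 (0.993), Ly6c2 (0.993), Stfa2 (0.993), Car3 (0.993), Myh3 (0.992) and Fcnb (0.991). Most of these, among them S100a9, Pglyrp1, Prtn3, Ltf and Chil3, are known from granulocytes and other myeloid cells. S100a9, a subunit of calprotectin, stood at 308, 918 and 500 FPKM in Grx2+/+ replicates 1, 2 and 3 and at 0.457, 0.649 and 0.651 FPKM in Grx2-/-. Hmga2, a chromatin protein, had the same wild type order at 11.3, 26.1 and 16.1 FPKM but stood higher in Grx2-/-, at 58.6, 60.3 and 62.1 FPKM.

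Neutrophil markers had the order of the muscle genes among the Grx2+/+ libraries. Among the Grx2-/- libraries the muscle sum was lowest in replicate 1, at 3.98 FPKM, where the neutrophil sum was highest. Most of that neutrophil sum was 1 gene, Lcn2, at 4.94, 2.56 and 4.09 FPKM in Grx2-/- replicates 1 to 3. The order of the sum there rests on Lcn2, which was named after its values were seen. The 8 markers summed to 917, 2658 and 1458 FPKM in Grx2+/+ replicates 1, 2 and 3 and to 6.79, 4.38 and 6.21 FPKM in Grx2-/-, and 7 of the 8 had the order replicate 2, 3, 1 with replicate 2 at least 2-fold above replicate 1. Elane had the order without that fold, at 10.6, 19.2 and 10.9 FPKM in replicates 1, 2 and 3. Their ratio of replicate 2 to replicate 1 had a median of 2.75, beside 16.6 in the 8 muscle genes with the order, and replicate 3 lay a median 30.3% of the way up, beside 28.2%. In Grx2-/-, Elane had no read in 2 libraries and Mpo in 1. Endothelial markers did not have this order in any of 8 genes: they summed to 27.1, 22.4 and 25.1 FPKM in Grx2+/+ and to 5.21, 5.78 and 5.06 FPKM in Grx2-/-, and 6 of 8 were lowest in Grx2+/+ replicate 2. The part of these other cells in the muscle values was not tested.

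Smooth muscle genes, which share actins and Des with skeletal muscle, did not have the order in any of 13. They summed to 3872, 3565 and 3721 FPKM in Grx2+/+ replicates 1, 2 and 3 and to 1348, 2029 and 1815 FPKM in Grx2-/-, and 10 of 13 were lowest in Grx2+/+ replicate 2, the library in which 9 of the 10 skeletal muscle genes were highest. All 10 smooth muscle genes tested fell in Grx2-/- (limma, adjusted over 11083 genes, beside 24.6% of all genes; 9 without Grx2+/+ replicate 1 or 3), with a median log2 difference of -0.92. Tpm1 fell by 0.65 ± 0.05 (SE, adjusted p = 1.04e-05) and Actg2 by 2.21 ± 0.22 (SE, adjusted p = 4.39e-05). Within Grx2-/-, 12 of 13 were lowest in replicate 1. So were 6 of the 10 skeletal muscle genes, among them Acta1 at 2.25 FPKM beside 3.42 and 3.49, and Tnni2 at 1.12 FPKM beside 2.01 and 1.79. Whether the smooth muscle and skeletal muscle values in knockout cells are linked was not tested.

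Heart genes outside the sarcomere list were low. The 8 of 10 cardiac markers in the table summed to 0.999, 1.12 and 0.812 FPKM in Grx2+/+ and to 5.93, 4.75 and 5.20 FPKM in Grx2-/-, and the 1 tested, Hand2, a factor also active outside the heart, rose. Hand2 made up most of these sums, at 0.801, 0.869 and 0.723 FPKM in Grx2+/+ and 5.74, 4.49 and 5.09 FPKM in Grx2-/-. Its Grx2+/+ mean of 0.798 FPKM was under the minimum level, which fixed the direction of its call. The other 7 summed to 0.198, 0.247 and 0.0884 FPKM in Grx2+/+ and to 0.193, 0.262 and 0.109 FPKM in Grx2-/-. The 5 brown adipocyte markers found summed to 18.0, 51.6 and 28.1 FPKM in Grx2+/+ and 7.89 to 9.68 FPKM in Grx2-/-. Only 1 of the 4 with at least 10 reads, Fabp4, a gene of many adipocytes and macrophages, had the order. Fabp4 made up most of the brown adipocyte sums, at 17.2, 50.9 and 27.2 FPKM in Grx2+/+ replicates 1 to 3 and 7.03 to 8.85 FPKM in Grx2-/-.

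**Figure D4:**
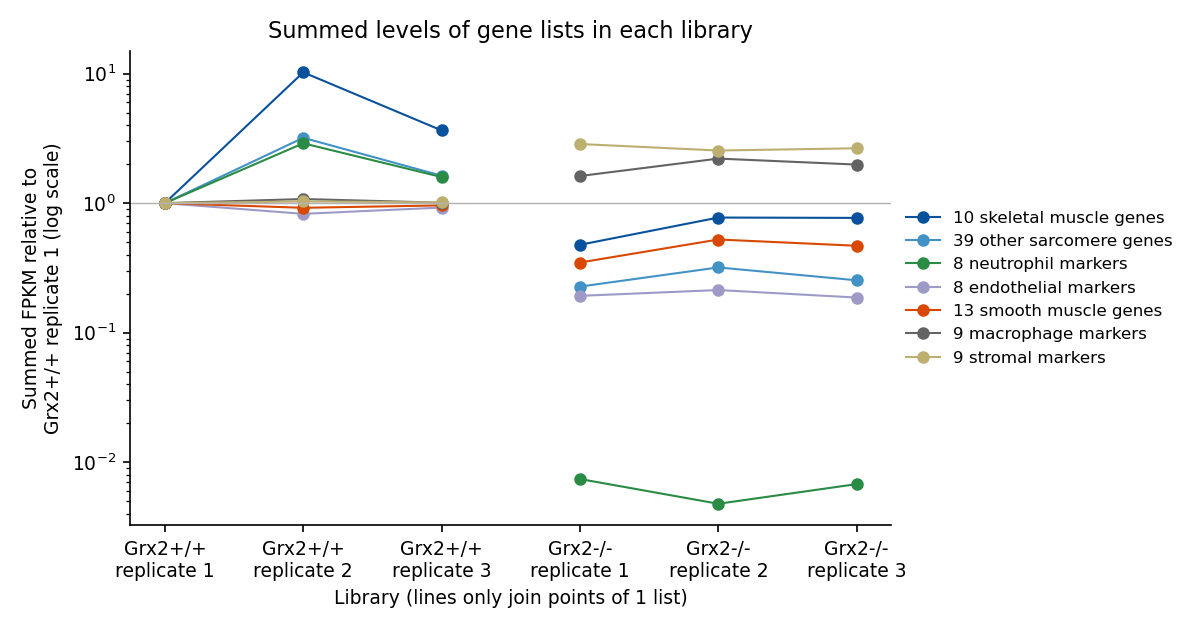
Summed FPKM of 7 gene lists in each library, divided by the sum in Grx2+/+ replicate 1 (log axis); each point is 1 library. The 10 skeletal muscle genes go from 8.35 FPKM in Grx2+/+ replicate 1 to 85.5 in replicate 2 and the neutrophil markers from 917 to 2658, while smooth muscle, endothelial, macrophage and stromal lists stay near 1 within Grx2+/+.

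Promoters in RefSeq's GRCm38.p6 table were found for 7 of the 10 genes, not for Myod1, Tnnt3 or Tnni2, and were searched over 250 bases before the start on both strands. An E-box, CANNTG, was present in 6 of 7, all but Actc1, beside 66.2% of 32851 promoters. The narrower form CAGCTG, which is a part of the E-box matches, was present in 4 of 7 (Mylpf, Acta1, Des and Ckm), beside 13% of promoters. CArG boxes were present in 2 of 7, Acta1 and Actc1, beside 1.47%. The MCAT motif CATTCC was present in Acta1 alone, beside 12.6% of promoters. The MEF2 box was searched only as the strict pattern YTAWWWWTAR, where Y is C or T, W is A or T and R is A or G. That pattern was present in none of 7, beside 2.92%. The stretch ctatatttat in the Myog promoter differs from it in the last base only and was not counted. A match of letters is not evidence of binding, and nothing in this series measured binding.

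**Figure D5:**
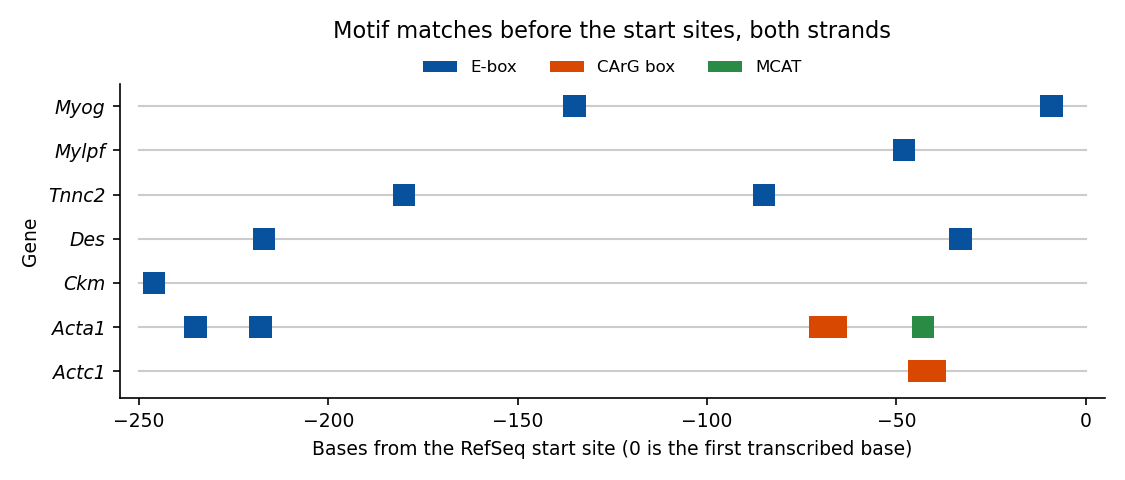
Places of E-boxes, CArG boxes and the MCAT motif in the 250 bases before the start sites of 7 genes (x axis, bases from the start site), both strands, each bar 1 match. E-boxes are in 6 of 7 genes at differing places, and the CArG boxes of Acta1 and Actc1 lie within 73 bases of the start.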

How the data were processed

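RNA of 3 Grx2+/+ and 3 Grx2-/- BMSC libraries, grouped by the genotype label, was measured by RNA-seq; per the labels' protocols, extraction was with TRIzol and library preparation with a VAHTS Universal V6 kit. The authors deposited FPKM values with 1 column per library. The submitters' processing notes name GRCm39 as the build and HISAT2, HTSeq and R 3.2.0 as tools. The annotation, strandedness and other versions were not given in the sources used here. FPKM does not correct for a shift in composition.

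Whole reads were recovered for all 22984 genes (100% within 1e-05 reads), from depths of 40797879 to 41794919; exact 95% intervals of read ratios, from scipy 1.17.1, and the floor of 3 reads cover counting error only. Genes with a mean of at least 1 FPKM (11083) were fitted as log2(FPKM + 1) with limma 3.58.1 in R 4.3.3 (two-sided, eBayes with trend); p was adjusted by Benjamini and Hochberg's method, with calls under 0.05, and the fit was tested on simulated data. No count model served as the main test, because FPKM are not counts.

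The 10 genes and all lists were chosen with earlier results of these data known. Named genes are the 10, up to 4 called genes with the smallest p per list, uncalled list genes given as values, the 12 most alike genes and Glrx2. A gene that this rule allows is not reported here. Alternatives were pseudocount, filter, scaling, eBayes options, statmod 1.5.0 robust fitting, replicate block, voom on recovered reads, thresholds and libraries left out. Same-numbered replicates deviated together with r of 0.11, 0.12 and 0.02 over 11083 genes, so the numbers were not taken as pairs.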

Additional observations from a re-analysis of the deposited data

How the results depend on the processing

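The differences of genotype means of the 10 genes gave 96 values under other settings, of which 86 stayed within the spread between replicates and 9 moved. Of those, 8 moved with a pseudocount of 0.1, to larger differences, and Tnni2 moved from 0.12 to 0.53 without the 2 libraries that stand apart. The spread between wild type replicates is wide, so staying within it does not mean a like size: without Grx2+/+ replicate 2 the differences also shrank from -0.80 to -0.29 for Myod1, -0.96 to -0.45 for Tnnc2 and -1.10 to -0.63 for Des. Tnni2 reversed to -0.037 without Grx2+/+ replicate 3, and ranged from there to 0.38 with each library left out. Of 72 counts of called genes, 66 stayed within 1.5 times. With a 2-fold minimum, 1111 of all tested genes were called, with 2 muscle genes outside the 10 higher and 9 lower, and 2 smooth muscle genes lower. With a mean of at least 5 FPKM, where 13 muscle genes outside the 10 were tested, 5 were higher and 4 lower. Without a filter, 113 were tested, 10 were higher and 21 lower. Leaving out each library in turn gave 6556 to 7542 calls over all tested genes, 7 to 10 muscle genes higher, 12 to 16 lower and 9 or 10 smooth muscle genes lower. Cnn1, of the smooth muscle list, was the gene lost, without Grx2+/+ replicate 1 (adjusted p = 0.0513) or replicate 3 (0.0528), over a range of 0.000559 to 0.0665. Myh3 and Tnnc1 also lost their calls with robust fitting (adjusted p = 0.0747 and 0.0515) and without a filter (0.0974 and 0.066). Their ranges over settings were 0.00168 to 0.0974 and 0.00109 to 0.066. Quantile normalization moved the median log2 difference of all tested genes from 0.09 to -0.03, and median-of-ratios scaling to 0.01; 7 muscle genes were then higher and 15 or 16 lower. With the replicate block 7562 genes were called, with 9 muscle genes higher, 14 lower and 10 smooth muscle genes lower; the numbers are only labels, as the pairing check found no common deviation for number 3. Depth limits Myod1, Tnnc2 and Ckm most, with 3, 2 and 3 reads in Grx2+/+ replicate 1.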
